A study of Mus musculus with 112 samples.

Results

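The genes of the protamines and transition proteins, Prm1, Prm2, Prm3, Tnp1 and Tnp2, were followed across sperm and brain of mice in a study of paternal cigarette smoke (CS) exposure. The members measured were all CpG cytosines with a methylation value from 2 kb upstream of each gene's start to 2 kb past its end in the mm10 annotation. These were 93 of 4388579 cytosines with a value in any table, and 93 of the 624 CpG cytosines that the reference holds in the 5 windows. The values are percents of DNA methylation (DNAme) from reduced representation bisulfite sequencing, in which DNA is cut with MspI and TaqI and the cut ends are sequenced. The series holds 112 libraries, numbered as replicates of 13 groups, and the study's methods give a group's size in animals.

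F0 sperm came from C57BL/6J wild type (WT) males that were unexposed (control WT, n = 10), CS-exposed (smoked WT, n = 9) or CS-exposed and then left without smoke in 3 groups (recovery 1, n = 9, recovery 2, n = 10, and recovery 3, n = 10). The recovery intervals spanned 28 to 171 days. Control Nrf2-/- (n = 10) and smoked Nrf2-/- (n = 9) F0 sperm came from males without functional NRF2, a transcription factor of the antioxidant defence. Sperm of the next generation (F1 sperm) was taken from male offspring of control WT (n = 6) or smoked WT males (n = 7). F1 brain was the prefrontal cortex of male offspring of 4 kinds of sire, WT or Nrf2-/- and either unexposed or CS-exposed, with 8 libraries for each. By the study's methods the mothers were unexposed CAST/EiJ females, so every son is a hybrid of both strains, and those with an Nrf2-/- sire are heterozygous for the targeted allele. F0 males were matched for age at the start, entered the exposure when a few weeks old, and tissues of sons were taken in adulthood. By the study's methods, control WT and smoked WT sperm was taken within days of the end of exposure. Recovery groups were sampled 28 to 171 days after it and were older. Against control WT, recovery and age therefore cannot be told apart. The Nrf2-/- males were of a single purchased line on a C57BL/6J background. Sperm came from the cauda epididymis and vas deferens after lysis of somatic cells.

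As spermatids elongate and condense, the transition proteins TNP1 and TNP2 take the place of histones and are then replaced by the protamines PRM1 and PRM2, arginine-rich proteins that pack the DNA of the sperm head. Their genes are transcribed earlier, in round spermatids, under CREM, an activator that binds the cyclic AMP response element (CRE), and the mRNAs are stored before translation. Prm1, Prm2, Prm3 and Tnp2 form a cluster, and Tnp1 lies alone on another chromosome. Prm3 is a gene of the cluster whose product is acidic. All of these genes are silent in brain.

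The cluster lies on chromosome 16, with every gene on the minus strand. In mm10 the gene records are Prm1 (chr16:10796326-10805839), Prm2 (chr16:10791380-10796134), Prm3 (chr16:10790505-10790914) and Tnp2 (chr16:10787936-10788660). Tnp1 is at chr1:73015074-73015909, also on the minus strand. The windows on chromosome 16 overlap, so that 1 cytosine can belong to several genes. To be scoreable, a cytosine needed a value in 4 or more libraries of each group, taken within F0 sperm, F1 sperm or brain. In F0 sperm 19 member cytosines were scoreable, of which 11 were in the Tnp1 window, 7 in that of Tnp2, 1 shared by Prm2 and Prm3, and 0 in that of Prm1. F1 sperm had 4, all of Tnp1, and F1 brain had 20. Each F0 sperm library held a value at 13 to 44 of the 93 cytosines (median 26), each F1 sperm library at 4 to 20 (median 13), and each brain library at 17 to 47 (median 32). No read counts are given, so the depth behind a percent is unknown.

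The stretches that carry the results are shown on the gene strand, 5′ to 3′, as read from the RefSeq copy of GRCm38 (mm10), with each CpG in capitals. The Tnp1 intron stretch holds the cytosines measured in most libraries. The coding parts of exon 1 of Tnp1 and Prm1 hold 8 and 12 CpGs, the upstream part of Tnp1 holds its single CpG just before the start, and the Prm2 stretch holds its methylated cytosines at the start of exon 2.
Tnp1 intron, chr1:73015478-73015542: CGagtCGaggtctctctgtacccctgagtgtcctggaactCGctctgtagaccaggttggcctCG
Tnp1 exon 1 coding part, chr1:73015725-73015863: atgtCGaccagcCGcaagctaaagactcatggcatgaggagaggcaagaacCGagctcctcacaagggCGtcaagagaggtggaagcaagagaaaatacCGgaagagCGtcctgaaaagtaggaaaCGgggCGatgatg
Tnp1 upstream, chr1:73015910-73016009: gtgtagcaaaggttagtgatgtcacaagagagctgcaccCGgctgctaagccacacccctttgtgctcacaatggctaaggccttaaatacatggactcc
Prm1 exon 1 coding part, chr16:10796626-10796731: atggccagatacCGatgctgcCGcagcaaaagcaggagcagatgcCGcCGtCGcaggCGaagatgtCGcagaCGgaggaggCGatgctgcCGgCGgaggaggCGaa
Prm2 exon 2 and intron, chr16:10791610-10791662: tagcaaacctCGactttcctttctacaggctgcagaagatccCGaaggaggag

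The labels were checked first. 4 cytosines of Nfe2l2, the gene of NRF2, had a value in 48 of 48 WT and 0 of 19 Nrf2-/- F0 sperm libraries. Elsewhere in the gene, at 75679351 and 75679375, 48 of 48 WT and 19 of 19 Nrf2-/- libraries had a value. Maternally methylated imprinted promoters (within 500 bp of the starts of Peg3, Snrpn, Mest, Peg10, Plagl1 and Nnat) are unmethylated in sperm and partly methylated in somatic cells. Their mean was 0% to 4.53% in F0 sperm libraries (median 0.377%), 0% to 8.33% in F1 sperm and 8.08% to 41.1% in brain (median 27.7%), from 4, 3 and 4 of the 6 promoters. No pair of libraries of a tissue held more than 3.89% identical values among sampled cytosines between 0% and 100%.

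Tnp1 was nearly unmethylated in sperm and highly methylated in brain. Across 6 of its measured intron cytosines, those from 367 to 431 bases past the start, the mean DNAme of a library was 0.214% to 9.65% in all 67 F0 sperm libraries (median 3.44%) and 0% to 11.1% in the 12 F1 sperm libraries with a value (median 5.29%). In the 32 brain libraries it was 75.3% to 89.3% (median 80.4%). Sperm and brain libraries did not overlap. The 5 control WT F1 sperm libraries with a value had 0%, 0%, 5.00%, 5.56% and 10.3%, and the 8 control WT brain libraries had 78.3% to 89.3% (median 82.1%).

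**Figure D1:**
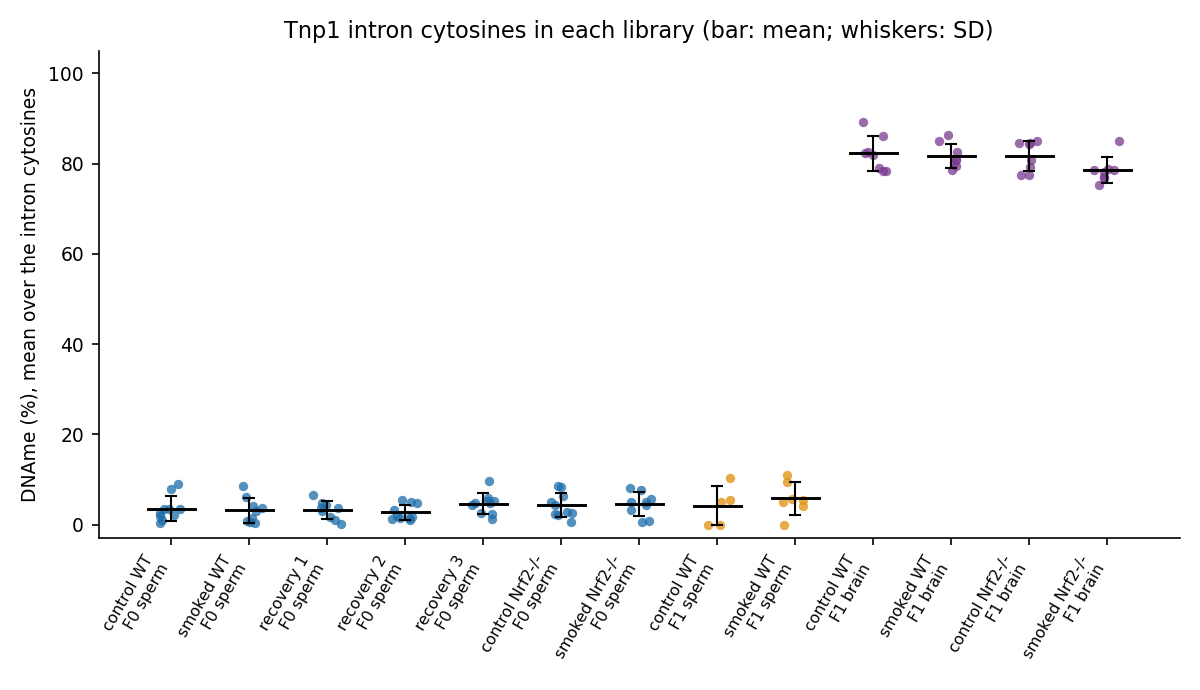
Mean DNAme (percent, vertical axis) over the Tnp1 intron cytosines with a value, for each library (points) of the 13 groups, with the group mean (bar) and SD (whiskers). Sperm libraries lie at or below 11.1% and brain libraries at or above 75.3%.

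The difference between tissues was tested in control WT sons with limma, which fitted the group means over all cytosines, regions or gene windows and adjusted p-values by the Benjamini-Hochberg method. limma called 4 of the 4 Tnp1 cytosines scoreable in both, all lower in sperm (41.3% of all cytosines were called). At 73015478 DNAme was 1.67% in sperm (n = 4) and 95.4% in brain (n = 8), a change of -93.8 points (SE 1.96, limma adjusted p = 8.45e-12). At 73015537 it was 2.22% (n = 5) and 95.4% (n = 8), a change of -93.2 points (SE 3.29, limma adjusted p = 2.07e-10). The CpG at 73015501 and 73015502 was also lower in sperm, and its level in brain was below that of 73015478 and 73015537 on both of its strands. Its forward-strand cytosine at 73015501 had 0% (n = 4) against 60.9% (n = 8), and its reverse-strand cytosine at 73015502 had 8.22% (n = 5) against 71.3% (n = 8), with limma adjusted p of 2.61e-06 and 1.57e-08.

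As a region (chr1:73015478-73015537) the 4 cytosines had 3.30% in sperm and 80.8% in brain, a change of -77.5 points (95% interval -81.3 to -73.6, limma adjusted p = 3.13e-13), where 55.0% of all regions were called. The Tnp1 window rests on the same 4 cytosines and gave -77.5 points (limma adjusted p = 6.04e-13, 64.0% of windows called). No cytosine of the other 4 genes was scoreable in F1 sperm, so that Tnp1 alone could be tested within the same strain background. The whole stretch of 65 bases is masked as a repeat in the assembly. With each of the 14 libraries left out in turn and the minimum lowered to 3 libraries, limma still called all 4 cytosines, the region and the window. At 73015478 and 73015501 some of these fits had 3 sperm libraries. Control WT F1 sperm column 3 had no value at the 4 cytosines, so leaving it out removed no value there.

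In brain, levels along the Tnp1 intron differed between cytosines and between libraries. Over 32 libraries 73015501 ranged from 32.6% to 80.6% (mean 52.4% ± 11.1, SD) and 73015502 from 52.4% to 82.9% (69.3% ± 6.66). By contrast 73015478 was at 87.8% to 100% (95.3% ± 3.93) and 73015537 at 80.6% to 100% (94.2% ± 5.08). The outermost cytosine, 73015542, spread more than these, from 66.7% to 100% (92.6% ± 8.03). At the CpG of 73015501 and 73015502 the forward strand thus had a lower mean than the reverse strand. Sons carry CAST/EiJ sequence on the maternal allele, and whether that strain has the CpG of 73015501 and 73015502 was not tested.

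The low level in sperm covered the start of Tnp1 as well. In F0 sperm, 4 reverse-strand cytosines of exon 1 (73015851, 73015859, 73015877 and 73015900) had means over all libraries of 2.83% (n = 59), 1.62% (n = 59), 0.686% (n = 50) and 2.12% (n = 50). Of these libraries 46, 52, 48 and 41 were at exactly 0%. The CpG 61 bases before the start, at 73015970, had 4.57% ± 10.3 (SD, n = 45), with 34 libraries at 0% and the highest at 44.4%. In control WT brain the same 5 cytosines had 97.2% (n = 8), 88.4% (n = 8), 94.6% (n = 8), 72.4% (n = 8) and 72.3% (n = 5). In brain 73015900 and 73015970 were lower than the other 3. In F0 sperm group means stayed at or below 5.39% at the 4 exon cytosines and reached 14.6% at 73015970 in recovery 3. Past the 3′ end of Tnp1 values were sparse, at 0% to 7.14% in 6 F0 sperm libraries (chr1:73013874-73013920) and 100% in 1 (chr1:73014825-73014838).

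**Figure D2:**
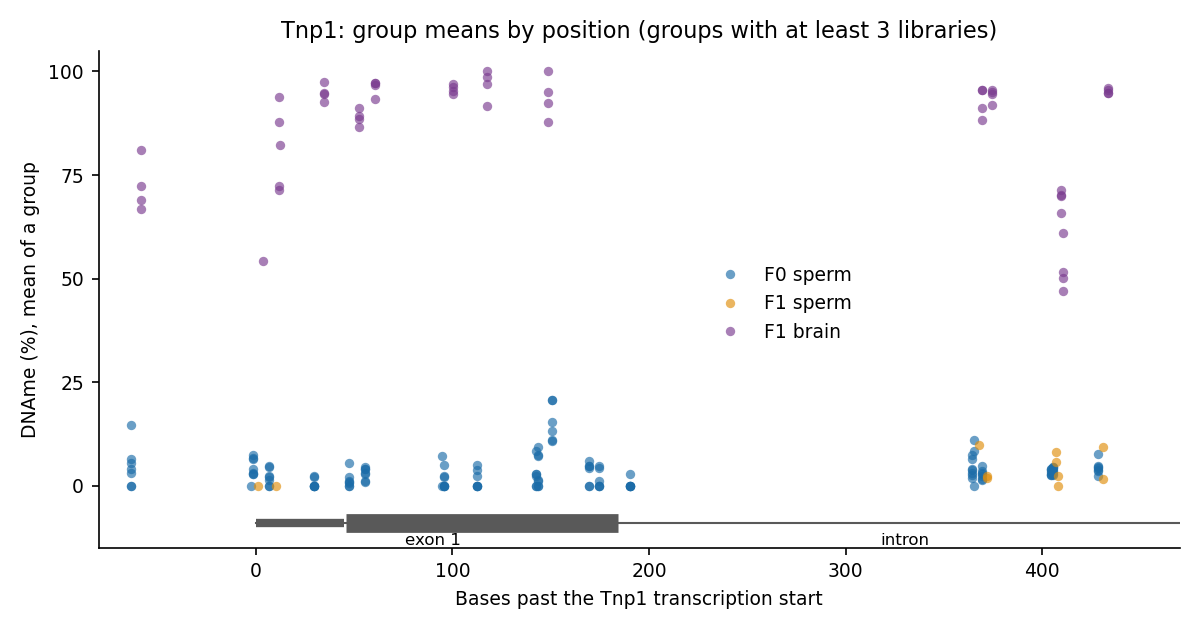
Group means of DNAme (percent, vertical axis) at each Tnp1 cytosine against the distance past the transcription start in bases, for groups with at least 3 libraries, in F0 sperm, F1 sperm and F1 brain (drawn a few bases apart), with exon 1 as a bar at the foot, thicker where coding, and the intron as a line. Tnp1 sperm groups lie below brain groups along the whole stretch, up to 20.6% at 73015756, and brain groups are lower at several cytosines around the start and at the CpG in the middle of the intron stretch.

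Prm2, the gene of the second protamine, showed the opposite level, but at another part of the gene. Its exon 1 had no value. The Prm2 cytosines measured in most F0 sperm libraries lie 453 to 643 bases past the start of the short transcript. The Prm2 cytosine at 10791462, in the 3′ UTR, had a mean of 94.2% ± 9.95 (SD) over 59 F0 sperm libraries, with the lowest at 50% and the median at 100%. The group means ran from 90.3% in smoked Nrf2-/- to 98.6% in recovery 2. In the coding part of exon 2 and the intron beside it, cytosines 10791620 and 10791652 averaged 73.1% to 100% per library (median 93.8%, 49 F0 sperm libraries). Brain was methylated there too, at 59.8% to 94.4% (median 82.8%, 28 libraries), and 10791462 ranged from 54.5% to 100% in brain (median 76.1%, 32 libraries). All 3 cytosines lie within 2 kb of Prm3 as well and were the only scoreable ones of Prm3.

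F0 sperm allowed more of these genes to be set against brain, as an alternative fixed with the other tests. Control WT F0 sperm (n = 10) is of an inbred strain and control WT brain of hybrid sons, so tissue, strain and generation cannot be told apart here. limma called 13 of the 20 cytosines with a value in 4 or more libraries of both control groups, 10 lower in sperm and 3 higher. Over the genome 30.3% of all cytosines were called. No value was required in the other groups here. Some of the 20 are therefore not scoreable across all groups, namely 10791620 and 10791652 in F0 sperm and 73015877, 73015900 and 73015970 in brain. The 10 were all of Tnp1, from -57.1 points at 73015501 to -96.3 points at 73015851. The 3 higher ones were of Prm2. At 10791462 DNAme was 92.8% in sperm (n = 8) and 73.9% in brain (n = 8), a change of 18.9 points (SE 4.73, limma adjusted p = 0.00524). At 10791620 it was 99.1% (n = 8) against 86.1% (n = 7), with a 95% interval of the change from 3.86 to 22.2 points (limma adjusted p = 0.0309). At 10791652 it was 94.1% (n = 8) against 76.8% (n = 7), with an interval from 4.96 to 29.7 points (limma adjusted p = 0.0333). In smoked WT F1 sperm, where no test was made, 10791462 had 79.0% ± 17.1 (SD, n = 4), and control WT F1 sperm had no value there. Over 10791620 and 10791652, the 2 F1 sperm libraries with a value had means of 75% and 83.3%. The median of 28 brain libraries there was 82.8%.

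In that comparison 2 of 4 regions were called, both of Tnp1 (60.6% of all regions), and 3 of 4 gene windows (72.1% of all windows), namely Tnp1 lower and Prm2 and Prm3 higher. The Prm2 and Prm3 windows rest on the same 3 cytosines and moved from 79.5% in brain to 94.7% in sperm, a change of 15.2 points (95% interval 10.4 to 20.0, limma adjusted p = 1.71e-05).

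**Figure D3:**
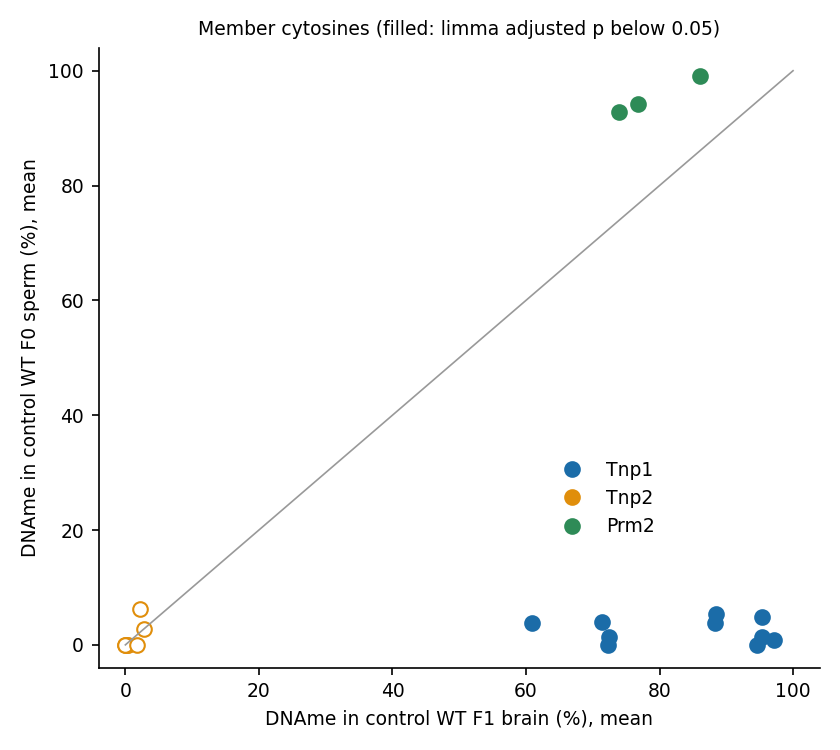
Mean DNAme (percent) of each member cytosine in control WT F0 sperm (vertical axis) against control WT F1 brain (horizontal axis), by gene, with filled points at a limma adjusted p below 0.05 and a line of equal levels. Tnp1 cytosines lie along the foot at 60.9% to 97.2% in brain, Prm2 cytosines lie above the line, and Tnp2 cytosines are at or below 6.29% in both.

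Tnp2 was measured mainly at its edge. Its 7 scoreable cytosines, from 10785958 to 10786254, lie past the 3′ end of the gene on the side of Socs1, a gene of cytokine signalling. A tested region at this edge runs on past the window (chr16:10784675-10785993, 127 cytosines in the comparison of F0 sperm with brain). Most libraries were low there, although single cytosines reached 31.2% in F0 sperm (10786254 of Tnp2) and 33.3% in brain (10786186 of Tnp2) in single libraries. The mean of a library over this stretch was 0% to 7.81% in F0 sperm (65 libraries), 0% to 6.25% in F1 sperm (9 libraries) and 0% to 4.66% in brain (32 libraries). At 10785958 and 10785976 all 52 F0 sperm libraries with a value were at 0%. limma called none of the 7 between control WT F0 sperm and brain (smallest limma adjusted p = 0.299). Within the coding exon of Tnp2 values were sparse, with 9 F0 sperm libraries that ranged from 0% to 87.5% (median 7.14%) and 3 F1 sperm libraries from 48.5% to 61.1%. Single cytosines upstream of Tnp2, at 10788699 and 10789025, had 100% in 1 F0 sperm library each. The coding part of Prm3 had a value in 1 brain library, at 100%.

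Prm1, the gene of the first protamine, gave values by genotype. Its exon 1 holds a run of 8 forward-strand coding cytosines from 10796640 to 10796685, 0 to 45 bases from an MspI cut and so within reach of the same reads of 50 bases. In F0 sperm, 0 of 48 WT libraries had a value at any of the 8. Of the Nrf2-/- libraries, 9 of 10 control and 7 of 9 smoked had one. Over all positions with a value in at least 10 of the 19 Nrf2-/- libraries, 0.0466% (495 of 1062850) had a value in 0 WT libraries. Of the 37 members with a value in that many, these 8 were the only ones among the 495. Of the 495, 170 were on chromosome 2, which carries Nfe2l2, 152 on chromosome 13, 66 on chromosome 6, 63 on chromosome 11 and 12 on chromosome 16. The reverse pattern, a value in at least 24 WT and 0 Nrf2-/- libraries, held for 967 of 1175856 positions (0.0822%). It held for 0 of the 25 members with a value in at least 24 WT libraries, which is near that share. The number of positions with a value overlapped between genotypes (800578 to 1855546 in WT and 901592 to 1718943 in Nrf2-/-). Nrf2-/- libraries carry facility numbers 1 to 20 and WT libraries 21 to 70, so genotype and number run cannot be told apart.

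Where present, values at these Prm1 positions were mostly low in Nrf2-/- sperm. Reads of 50 bases do not show by themselves whether they come from the Prm1 locus, and this was not tested, so that the values in animals with the targeted allele are given by aligned position. The mean over the 8 cytosines was 0% to 35.7% in control Nrf2-/- libraries (median 1.14%, n = 9) and 0% to 19.8% in smoked Nrf2-/- libraries (median 5.36%, n = 7). The single other sperm library with a value, of smoked WT F1 sperm, had 85.7%. In brain, 4 of 8 libraries of control WT sires had 0% to 26.5% (median 13.9%) and 3 of 8 of smoked WT sires had 7.14% to 29.2% (median 13.8%). With control Nrf2-/- sires 7 of 8 libraries had 23.2% to 81.9% (median 33.5%), and with smoked Nrf2-/- sires 5 of 8 had 25% to 66.7% (median 37.5%). Values in libraries of Nrf2-/- sires, with the same limit, were mostly higher, and the ranges overlapped. In brain, libraries of Nrf2-/- sires carry facility numbers 1 to 16 and those of WT sires 17 to 32. Sire genotype and number run therefore cannot be told apart there either. A fit with a minimum of 3 libraries, chosen after these values were seen, tested 11 single Prm1 cytosines in brain and called none. Some of them are on the reverse strand, and the means over the 8 cytosines were not themselves tested. Against control WT sires the changes at Prm1 cytosines reached 35.0 points with control Nrf2-/- sires and 44.9 points with smoked Nrf2-/- sires, with smallest limma adjusted p of 0.893 and 0.749.

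**Figure D4:**
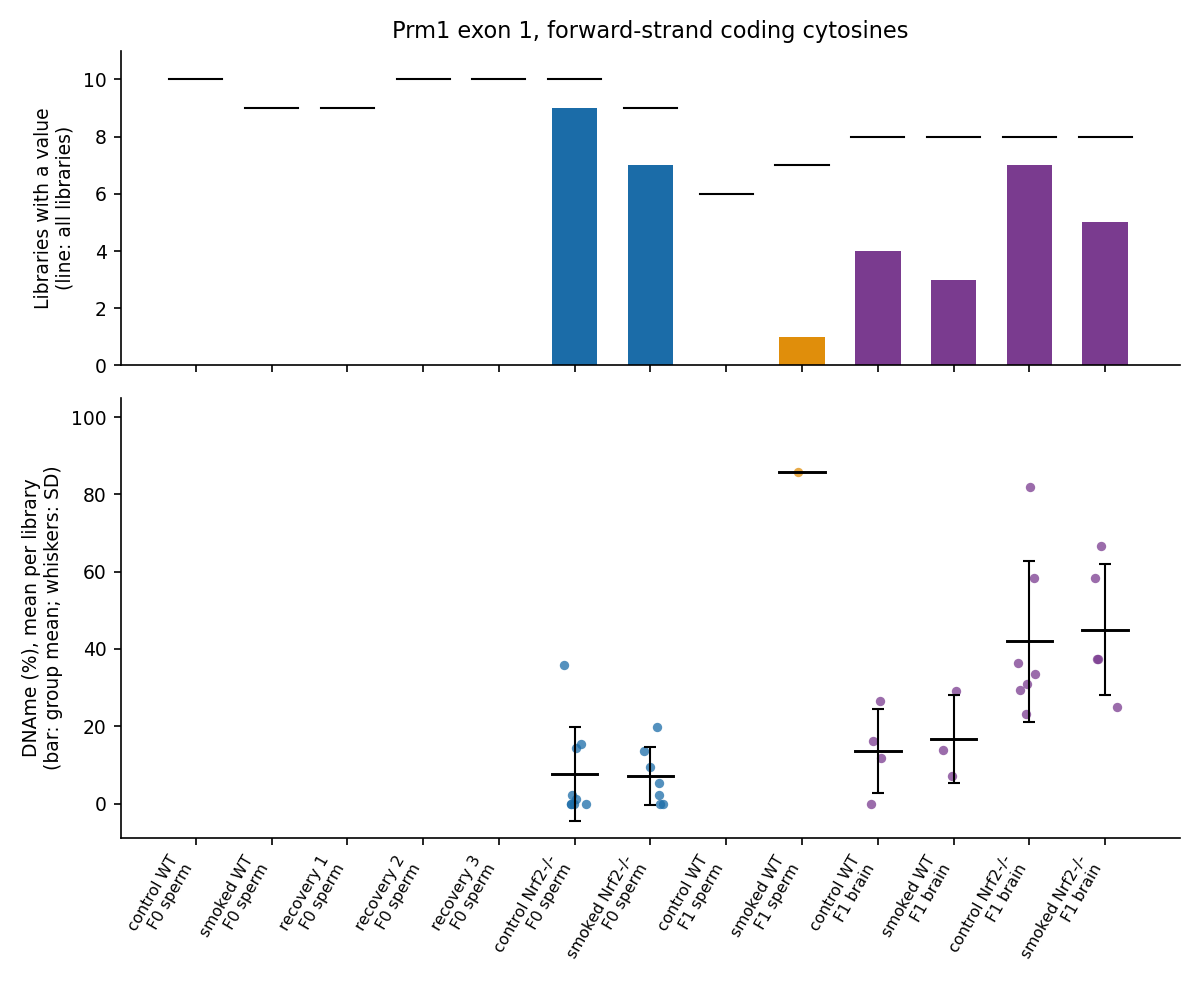
Top, number of libraries with a value at the 8 forward-strand coding cytosines of Prm1 exon 1 (bars) and all libraries of the group (lines). Bottom, mean DNAme over these cytosines (percent) in each library with a value, with the group mean and SD. WT F0 sperm has 0 libraries with a value, and Nrf2-/- F0 sperm lies at 0% to 35.7%.

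On the reverse strand of Prm1, 3 cytosines (10796710, 10796719 and 10796747) were scoreable in brain. In F0 sperm, 10796710 and 10796719 had a value in 8 of 19 Nrf2-/- and 0 of 48 WT libraries. That is below the minimum of 10 libraries used for the forward strand. Whether the reads at these cytosines come from the Prm1 locus was not tested. Their window mean was 11.5% with unexposed and 13.7% with CS-exposed WT sires, and 19.4% with unexposed and 9.76% with CS-exposed Nrf2-/- sires. At 10796710 single libraries ranged from 0% to 66.7% (18.3% ± 17.9, SD, n = 30). The smallest p among them was for smoked against control Nrf2-/- sires at this cytosine, with 7.73% (n = 7) against 29.5% (n = 8), a change of -21.7 points (SE 8.62) that did not pass (limma adjusted p = 0.844).

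Farther upstream, within an intron of the long Prm1 transcript, values were sparse. At chr16:10804030-10804057 DNAme was 75% to 100% (median 100%) in 13 F0 sperm libraries and 58.3% to 92.9% (median 83.3%) in 12 brain libraries. At chr16:10802506-10802526 it was 0% to 100% (median 27.3%) in 13 F0 sperm libraries and 0% to 14.3% (median 0%) in 8 F1 sperm libraries. The remaining cytosines of Prm1 and Prm2 outside exon 1 and exon 2 had a value in at most 5 libraries of any tissue and generation.

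The study asked whether CS changes the sperm methylome and whether the change recedes. At these genes limma called 0 of 19 cytosines, 0 of 4 regions and 0 of 4 gene windows in each of the 7 comparisons of F0 sperm. Among all cytosines, 0.000586% were called in smoked WT against control WT, 0.000293% in recovery 1, 0.000586% in recovery 2, 0.00293% in recovery 3, 0.0923% in control Nrf2-/-, 0.0805% in smoked Nrf2-/-, and 0.00176% in smoked against control Nrf2-/-. Among all regions the shares were 0.00159%, 0%, 0.00637%, 0.0430%, 0.409%, 0.357% and 0.00637% in the same order. Among all gene windows they were 0%, 0%, 0%, 0.00539%, 0.307%, 0.226% and 0%. With so few calls over the genome, 0 members called is near the background.

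Window levels of Tnp1 and Tnp2 stayed within a few points. Tnp1 was at 3.15% in control WT F0 sperm, 2.88% in smoked WT, 2.96%, 2.08% and 4.36% in recovery 1 to 3, 3.65% in control Nrf2-/- and 3.41% in smoked Nrf2-/-. Tnp2 lay between 0.316% (smoked Nrf2-/-) and 1.90% (recovery 3). For Prm2 and Prm3, with 1 cytosine in each window, the largest change was -6.50 points, between smoked and control Nrf2-/- sperm. The change with smoke in WT was between -0.620 and -0.0192 points over the 4 windows, where the median over all windows was -0.232.

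The cytosine with the smallest p in F0 sperm was 73015537 of the Tnp1 intron in recovery 1. It had 1.28% to 10.2% (median 4.30%, n = 9) against 0% to 4.49% (median 0.543%, n = 10) in control WT, and the groups overlapped. The change was 3.35 points (SE 0.921), with an unadjusted p of 5.75e-04 that did not pass (limma adjusted p = 0.759). Smoked WT sperm, before any recovery, had 0% to 4.17% (median 1.61%, n = 9). At 73015970 of Tnp1 recovery 3 had 0% to 44.4% (median 0%, n = 6), while all 7 control WT libraries with a value were at 0%. This was the largest change of a member cytosine in F0 sperm, 14.6 points (95% interval 3.54 to 25.6), and it did not pass (limma adjusted p = 0.810). Among cytosines with a value in at least 4 control WT F0 sperm libraries, those with the largest SD were 73015756 of Tnp1 (20.6% ± 31.6, n = 4, from 0% to 66.7%), 73015908 of Tnp1 (7.53% ± 10.9, n = 9, from 0% to 30.8%) and 10786186 of Tnp2 (6.29% ± 10.5, n = 7, from 0% to 28.6%).

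Sons were compared by their sires. In F1 sperm limma called 0 of 4 cytosines (0.00135% of all), 0 of 1 region (0%) and 0 of 1 gene window (0%) between smoked WT and control WT sires. At 73015478 of Tnp1, the smallest p, the 6 libraries of smoked WT sires had 0% to 22.2% (median 9.17%) and the 4 of control WT sires 0% to 6.67% (median 0%). The change was 7.67 points (95% interval -1.36 to 16.7, limma adjusted p = 0.972), and the groups overlapped.

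In F1 brain limma called 0 of 20 cytosines, 0 of 3 regions and 0 of 5 gene windows in each of the 4 comparisons. The shares of all cytosines called were 0% for smoked WT against control WT sires, 0.00216% for control Nrf2-/- and 0.00331% for smoked Nrf2-/- against control WT, and 0.000935% for smoked against control Nrf2-/- sires. In that order the shares of regions were 0.00124%, 0.0124%, 0.0198% and 0.00124%, and of gene windows 0%, 0.00528%, 0.00528% and 0.0423%. Of the member tests within a tissue, 12 of 217 for cytosines (5.53%), 5 of 41 for regions (12.2%) and 0 of 49 for gene windows had an unadjusted p below 0.05. Over all features in the same comparisons the shares were 5.41%, 6.72% and 7.67%, and for regions they ran from 3.91% to 10.4% between comparisons. These tests share control groups.

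In the main fit, with no alternative applied, the smallest p in brain was at the Tnp1 intron region in sons of smoked Nrf2-/- sires. The mean of a library over its cytosines was 75.3% to 84.9% (median 78.3%, n = 8) against 78.3% to 89.3% (median 82.1%, n = 8) with control WT sires, and the groups overlapped. The region changed by -4.12 points (95% interval -7.01 to -1.24, unadjusted p = 0.00666), which did not pass (limma adjusted p = 0.407). Over the genome, 8432 of 80920 regions had an unadjusted p below 0.05 in this comparison. Its cytosine 73015501 had 32.6% to 52.9% (median 48.6%) against 42.9% to 80.6% (median 59.7%), a change of -13.9 points (SE 5.10, limma adjusted p = 0.772). At this cytosine control WT sires had the highest group mean in brain, 60.9%, and smoked Nrf2-/- sires the lowest, 47.0%. The mean over all 32 brain libraries was 52.4%. The imprinted promoters of the tissue check were also lowest by median with smoked Nrf2-/- sires, at 11.6% to 34.6% (median 19.6%). With control WT sires they were at 16.2% to 38.3% (median 24.4%). Their medians were higher with smoked WT sires (33.9%) and control Nrf2-/- sires (28.6%), so control WT was not the highest there. The part of these promoters in the difference was not tested, and sire genotype and the run of facility numbers cannot be told apart in brain. For the change with smoke, limma called no difference between genotypes at any member window. This held in F0 sperm (0 of 4, 0% of all windows) and in brain (0 of 5, 0.0370% of all windows).

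**Figure D5:**
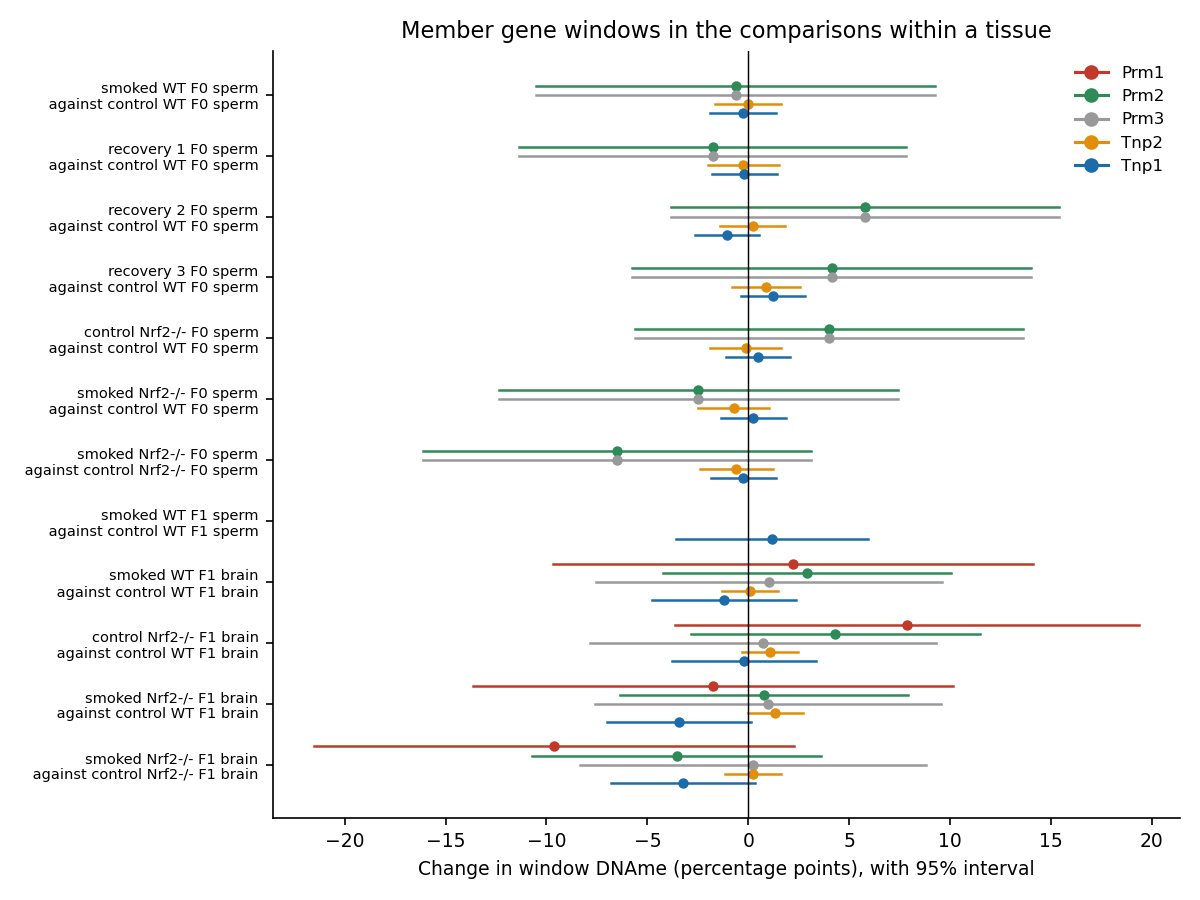
Change of window DNAme (percentage points, horizontal axis) with its 95% interval for each member gene in the 12 comparisons within a tissue. Intervals of Tnp1 and Tnp2 are narrow around 0, those of Prm1, Prm2 and Prm3 are wider, and 0 of the changes passed adjustment.

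Sequence features that the choice of genes did not use were scanned too. The full CRE, TGACGTCA, occurred once in the 5 windows, at chr16:10798947-10798954 in an intron of the long Prm1 transcript, 2061 bases before the start of the short transcript. Its CpG had no value in any library. In the RefSeq promoters (250 bases before to 50 after the start), 588 of 32851 (1.79%) held the full CRE and 20.8% its first 5 bases, TGACG, on either strand. All 5 members matched a promoter, and none of these 5 held either exact sequence. Variants of the CRE were not searched, such as TGATGTCA, which the Tnp1 upstream stretch shown above holds. These promoters hold 1 CpG in Prm1, 3 in Prm2, 4 in Prm3, 4 in Tnp2 and 6 in Tnp1, against a median of 7 over all promoters. As few or fewer were found in 14.1% of all promoters for Prm1, 31.4% for Prm2, 38.0% for Prm3 and Tnp2, and 47.9% for Tnp1. Neither CCGG nor TCGA, the sites of MspI and TaqI, occurs in the promoters of Prm2 and Prm3.

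Other genes of spermatid chromatin and of the control of protamine genes were taken as a list of 24 (among them Crem, Brdt, Chd5 and testis-specific histone genes). limma called 0 of 21 tested windows in each comparison of F0 sperm, 0 of 19 in F1 sperm and 0 of 22 in each of brain, with the shares of windows given above as background. Their median change ran from -0.337 to 0.451 points over the 12 comparisons. Between control WT F1 sperm and brain, 5 of 19 were higher in sperm and 8 lower (64.0% of windows called), with a median change of -2.92 points against -0.772 over all windows. Hist1h2aa and Hist1h2ba, neighbouring testis histone genes whose windows gave the same value, had 0.174% in sperm and 89.8% in brain (limma adjusted p = 4.01e-12). H2al2a, a histone variant of late spermatids, had 26.7% and 90.3% (limma adjusted p = 5.71e-14). Sox30, a transcription factor of spermatids, had 14.1% and 35.1% (limma adjusted p = 3.93e-10). These genes were named for their smallest p and were all lower in sperm, so that the 5 higher ones are not among them. Among 12 other genes of late spermatids, 0 of 8 tested windows were called in each comparison of F0 sperm and 0 of 9 in F1 sperm and in brain, and 8 were tested between these tissues, and 1 was higher in sperm and 3 lower, namely Ldhc at 98.1% against 48.6%, Acr at 44.7% against 83.7%, Tcp11 at 5.09% against 9.28% and Spem1 at 79.2% against 90.6%.

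The genes with the levels most like those of a member were found by the mean absolute difference of window means. Over all 13 groups the nearest to Tnp1 were Olfr414 (0.956 points), Olfr605 (1.25) and Rcvrn (1.31). Over the 11 groups of F0 sperm and brain they were Slitrk1, AW549877 and Mcam for Tnp2 (each within 0.295 points), Alox5, Ly6g6d and Ly6g6e for Prm2 (1.94 to 2.05), and Tmprss11b, Ackr4 and Prss45 for Prm3 (1.65 to 1.68). The Prm2 window holds 1 scoreable cytosine in F0 sperm and 6 in brain, of which 3 are those of Prm1 exon 1, so that its brain mean of 44.9% to 49.2% mixes both genes and lies below the levels given for Prm2 itself. Over the 4 brain groups they were Cend1, Scd2 and Abhd11 for Prm1 (1.86 to 1.88).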

How the data were processed

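DNAme was measured in sperm and prefrontal cortex by RRBS after separate MspI and TaqI digests, with single reads of 50 bases. Per the labels and the study's methods, the authors aligned reads to mm10 with Bismark (version not given in the sources used here) and deposited 1 table per group with a methylation percent per cytosine and library. No read counts were given, so precision rests on the spread between libraries. Column headings match no sample label, so columns were assigned to groups only. A control WT brain sample labelled Nrf2-/- in its strain was kept by its title. 0 value columns were unused.

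The members and gene lists were chosen with earlier results of these data known. Windows came from GENCODE M21 (GRCm38). Scoreable cytosines within 100 bp were joined into regions of at least 3 cytosines and over 50 bp. Region and window values were adjusted for which cytosines had a value (at least 50% needed). limma 3.58.1 (R 4.3.3) fitted group means over all features of a tissue and generation, with Benjamini-Hochberg adjustment and a threshold of 0.05, in 13 comparisons and 2 interactions. The code was tested on simulated data. Alternatives were a minimum of 6 libraries, a logit scale (1 added to each percent), both strands averaged and joining within 300 bp. Others were promoters (1 kb around the start of the gene record), the 2 groups alone, left-out libraries (with a minimum of 3) and F0 in place of F1 sperm. For Prm1 and Prm2 that start is of the long transcript, away from the start of the short transcript. A rule by size modelled on the study's was also used. It asked that the region mean and at least 1 in 3 of its cytosines changed by over 5 points, without the study's coverage minimum. Named cytosines and regions were those called, or else the smallest p of each tissue and generation, any in a full CRE, and the 3 with the largest SD in control WT F0 sperm (value in at least 4 libraries). Named list genes were the called ones with the smallest p, and the genes most like a member were the nearest 3. Depth was read as the number of positions with a value per library, 800578 to 1855546 in F0 sperm, 510212 to 1429060 in F1 sperm and 1332684 to 1711088 in brain.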

Additional observations from a re-analysis of the deposited data

Results flagged for a closer look

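In 65 groups of 4 to 10 libraries, 9 had a library that stood apart from the rest by Dixon's test on the mean over a stretch, and chance gives about 1 in 20 where values are spread and not tied. That rate does not hold for groups with many libraries at 0% or 100%. All other libraries were at 0% in smoked Nrf2-/- F0 sperm at the edge of Tnp2 and at 100% in recovery 2 at Prm2 10791462, where any other value would stand apart, and several libraries were tied at 0% or 100% in each of the other F0 sperm groups named here. At Prm1 exon 1, control Nrf2-/- F0 sperm column 5 had 35.7%. At Prm2 10791462, smoked WT F0 sperm column 5 had 50% and recovery 2 column 8 had 87.5%. At Prm2 10791620 to 10791652, recovery 2 column 10 had 75% and smoked Nrf2-/- F0 sperm column 2 had 73.1%. At the edge of Tnp2, control WT F0 sperm column 10 had 4.08%, smoked Nrf2-/- F0 sperm column 2 had 1.52% and smoked Nrf2-/- brain column 3 had 4.66%. At the Tnp1 intron, smoked Nrf2-/- brain column 8 had 84.9%. The depth behind these values is unknown.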

How the results depend on the processing

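In the comparisons within a tissue and the interactions, the number of members called was 0 under all 210 values computed with alternatives. The smallest limma adjusted p was 0.251, with a minimum of 3 libraries, which was chosen after the data were seen. Under these alternatives limma called few features over the genome. For control Nrf2-/- against control WT F0 sperm, joining within 300 bp gave 442 of 87375 regions called. The rule by size called more regions, 1642 of 62831 for smoked against control WT F0 sperm. For smoked against control it called 4389 of 33449 in F1 sperm and 12947 of 80920 in brain with Nrf2-/- sires. In these comparisons it was applied to 4, 1 and 3 member regions. Sperm against brain kept its direction at Tnp1 under every alternative run. The counts called there moved by more than 1.5 times with control WT F0 sperm in place of F1 sperm, to 13 cytosines, 2 regions and 3 gene windows, where 20, 4 and 4 could be tested instead of 4, 1 and 1. With each library left out in turn, and the minimum lowered to 3 libraries, the counts stayed at 4, 1 and 1. Without control WT F1 sperm column 1, for example, 177957 of 451625 cytosines were called over the genome. With both strands averaged 3 of 3 cytosines were called (181099 of 425716 over the genome). With a minimum of 3 libraries 4 of 6 cytosines were called (242240 of 726644). The same minimum gave 1 of 1 region (26771 of 51266) and 1 of 2 gene windows (11829 of 18227). Those not called were of Tnp2. A minimum of 6 libraries left no member to test between these tissues. No paired analysis was possible because the columns of the tables carry no replicate numbers. The unknown depth and the few scoreable cytosines (0 of Prm1 and 1 of Prm2 in F0 sperm) limit what could be detected.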
